A study of Drosophila melanogaster with 2 samples.

Results

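The 8 Hox genes of Drosophila melanogaster, labial (lab), proboscipedia (pb), Deformed (Dfd), Sex combs reduced (Scr), Antennapedia (Antp), Ultrabithorax (Ubx), abdominal-A (abd-A) and Abdominal-B (Abd-B), were examined for binding of the T-box factor Doc2. A peak was taken as a Hox peak where its summit had one of these genes as the nearest protein-coding transcription start site (TSS) or lay in the body of one. By this rule 490 of 140206 peaks of the ranked series list were Hox peaks, 267 at the 5 genes of the Antennapedia complex and 223 at the 3 genes of the Bithorax complex. Of the 1140 series peaks past the threshold on the irreproducible discovery rate (IDR), 2 were Hox peaks. The IDR measures how well the rank of a peak repeats between the peak sets compared, and the threshold was 0.01.

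Chromatin came from whole embryos aged 0 to 18 h of a transgenic fly line that makes a Doc2-eGFP fusion protein, was sonicated to 200 to 800 bp, and was precipitated with an antibody against GFP. There was 1 group with 2 biological replicates, with no second genotype, tissue or stage, and its control was not used here. Whole embryos over this span hold every germ layer and most stages of embryogenesis, so a value per peak is an average over cells that make the fusion protein and cells that do not. Neither cell type nor transcription was measured. All values below are descriptions, because 1 group gives no contrast between conditions and the peaks of a gene are not replicates.

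Hox genes encode homeodomain transcription factors that set segment identity along the body axis, and in the fly they lie in 2 clusters on the right arm of chromosome 3. The genes of the Antennapedia complex pattern the head and anterior thorax, and those of the Bithorax complex the posterior thorax and abdomen. Their expression domains are set by early segmentation factors and then kept by Polycomb and Trithorax group proteins, which act through large introns and intergenic regulatory regions. Doc2 is one of the Dorsocross proteins, known from amnioserosa, dorsal ectoderm and heart, and abd-A and Ubx are known to divide the larval heart tube into heart proper and aorta.

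The sequences around the summits that the results turn on are shown first, as the forward strand of Release 6 (dm6), 5′ to 3′. Antp and Dfd name the 2 Hox peaks past the threshold, and abd-A names the strongest peak of the Bithorax complex. Shorter windows are shown for the strongest peaks of Ubx and Abd-B. Capitals mark matches, on either strand, to the 9 motifs searched: GGTGTGA (T-box), TAATTA (homeodomain), TGATNNAT (Hox with Exd), GAGAG (GAGA factor), GCCAT (Pho), CAGGTAG (Zelda), TATCGATA (DREF), TTTATG (Abd-B and Cad), and ACAGTG, a 6-mer frequent in the series peaks by an earlier result of these data. Neighbouring or overlapping matches run together in capitals.
Antp, chr3R:6914463-6914663: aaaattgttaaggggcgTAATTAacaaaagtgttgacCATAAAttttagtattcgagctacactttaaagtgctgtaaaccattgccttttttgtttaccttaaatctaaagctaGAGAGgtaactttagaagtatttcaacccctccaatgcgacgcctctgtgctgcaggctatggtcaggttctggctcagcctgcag
Dfd, chr3R:6804692-6804892: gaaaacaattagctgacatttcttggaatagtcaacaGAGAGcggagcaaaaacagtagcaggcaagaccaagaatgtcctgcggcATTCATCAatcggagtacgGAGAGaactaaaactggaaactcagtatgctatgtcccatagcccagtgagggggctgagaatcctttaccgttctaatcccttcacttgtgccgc
abd-A, chr3R:16848681-16848881: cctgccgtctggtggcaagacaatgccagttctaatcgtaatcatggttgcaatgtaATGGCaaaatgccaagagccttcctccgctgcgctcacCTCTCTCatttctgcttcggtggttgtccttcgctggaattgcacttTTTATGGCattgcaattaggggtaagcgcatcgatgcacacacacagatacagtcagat
Ubx, chr3R:16731557-16731657: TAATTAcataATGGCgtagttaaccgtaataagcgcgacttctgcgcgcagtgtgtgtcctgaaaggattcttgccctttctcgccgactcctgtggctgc
Abd-B, chr3R:16958826-16958926: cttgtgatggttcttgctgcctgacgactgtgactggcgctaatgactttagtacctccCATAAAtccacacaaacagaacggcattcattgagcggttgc

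The Antp window held TAATTA 83 bp and CATAAA, the reverse complement of TTTATG, 63 bp to the left of the summit, and GAGAG 15 bp to its right. The Dfd window held ATTCATCA, a match to TGATNNAT on the reverse strand, 14 bp from the summit and GAGAG on both sides of it. Neither window held the T-box letters GGTGTGA. The abd-A window held a match to GCCAT on each side of the summit, at 43 and 45 bp, and overlapping GAGAG matches at 3 and 5 bp. A match describes the letters in a window and was not tested as a binding site.

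The 2 Hox peaks past the threshold lay in the Antennapedia complex, at Antp and Dfd, and none lay at the 3 Bithorax genes. These were 2 of 267 and 0 of 223 ranked peaks, beside 0.813% of all ranked peaks. The counts are too small to set the complexes apart, and the difference was not tested. The signal is a number that the authors' peak caller attached to each peak; no source used here gives its scale, so signals were compared only within a list. The Antp peak, at chr3R:6914388-6914737, lay in an intron of Antp and within the overlapping gene CG46458, 18277 bp downstream of the nearest TSS. Its signal was 98.1 over the series, and 37.9 and 47.3 in replicates 1 and 2. By signal it was thus high in every list, at percentile 99.5 of ranked peaks in the series, 98.1 in replicate 1 and 99.5 in replicate 2.

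Dfd, which specifies mandibular and maxillary identity, had its peak at chr3R:6804617-6804966 in intergenic sequence, 12956 bp from its TSS on the downstream side. The signal there was 86.1 over the series, and 44.4 and 39.6 in replicates 1 and 2. The order of the 2 peaks differed between the replicates, with Dfd above Antp in replicate 1 and below it in replicate 2. In the series list they ranked 668 and 866 by signal. Both were below the median signal of 105 of all 1140 peaks past the threshold.

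The share of Hox peaks past the threshold was 0.408% in the series list, beside 0.813% of all ranked peaks. The conservative list held the same 2 peaks, with IDR scores of 963 for Dfd and 942 for Antp, among 496 Hox ranked peaks, beside 0.766% of all ranked peaks. Neither replicate had a Hox peak past the threshold in its own list. Replicate 1 had 0 of 425, beside 0.643% of its ranked peaks, and replicate 2 had 0 of 434, beside 0.377%. The highest Hox score in a replicate's own list was 758, at the Antp peak in replicate 2, and in replicate 1 it was 582, at the Dfd peak, where 830 was the lowest score listed. In the other replicate the scores were lower, at 114 for the Antp peak in replicate 1 and 363 for the Dfd peak in replicate 2.

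Just outside the threshold in the series comparison, the score and the signal gave different orders. The score is scaled from the IDR, and 830 corresponds to an IDR of 0.01. Antp and Dfd, inside the threshold, had scores of 986 and 903, in the order of their signals. The next Hox peak by score was also in an intron of Antp, at chr3R:6917562-6917911, with a score of 763, an IDR of 0.0145 and a signal of 64.8. The abd-A peak that followed, at chr3R:16848606-16848955, had a higher signal of 77.3 but a score of 657 and an IDR of 0.0261. In the comparison behind the conservative list its score was 828 and its IDR 0.0101, just outside the threshold.

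At an IDR of at most 0.05, a limit chosen after the data were seen, 9 of 490 Hox peaks passed in the series comparison. This stood beside 2.17% of all ranked peaks. By complex these were 6 of 267 in the Antennapedia and 3 of 223 in the Bithorax complex. The 9 comprised 3 peaks at Antp, 2 each at Dfd and Abd-B, and 1 each at lab and abd-A. The second Dfd peak, at chr3R:6808108-6808457, overlapped no ranked peak in replicate 1 or in the comparison behind the conservative list. In the comparison behind the conservative list, 7 passed, 4 and 3 by complex, beside 2% of all ranked peaks. Of the 490 Hox peaks, pb, Scr and Ubx thus had none at this limit in the series comparison, while Ubx had 1 in the other.

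**Figure D1:**
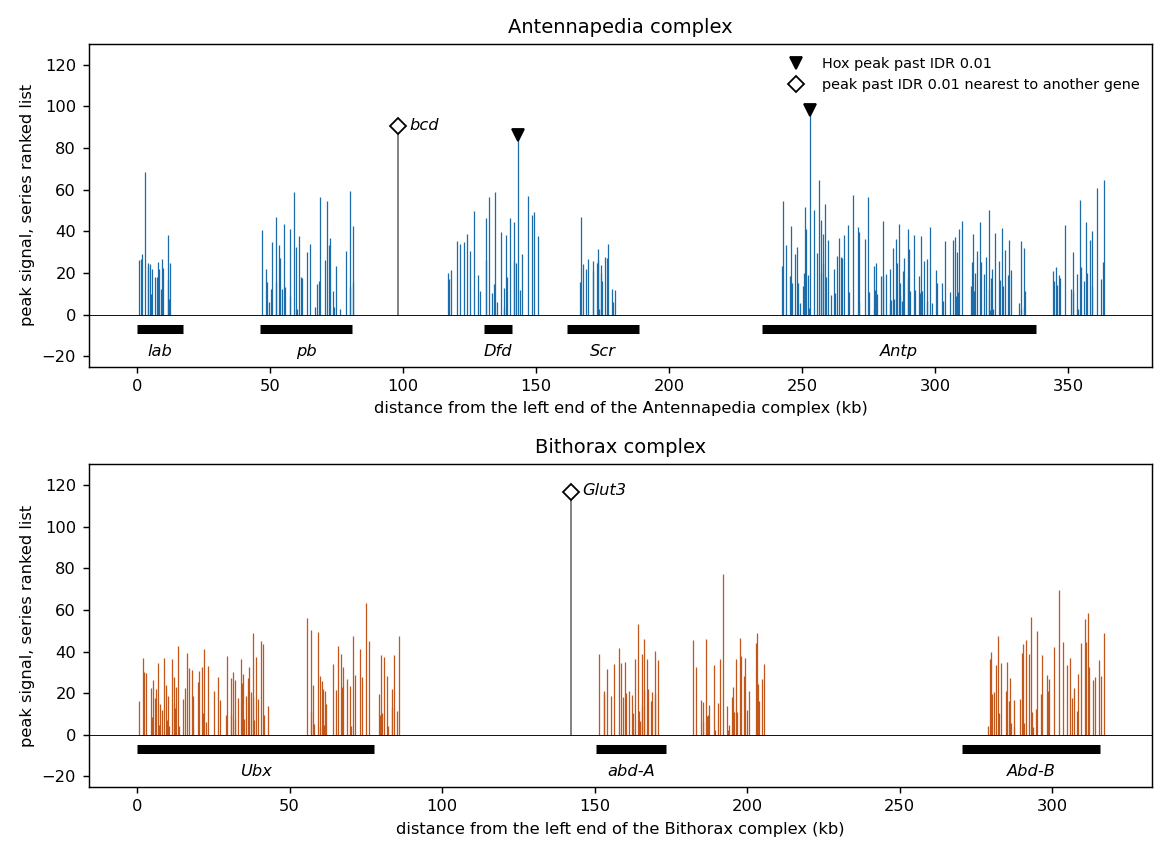
Signal of each Hox ranked peak in the series list, on the y axis, against the distance of its summit from the left end of each complex in kb, on the x axis; black bars are gene bodies. Filled triangles mark the 2 Hox peaks past an IDR of 0.01, at 98.1 and 86.1, and open diamonds the peaks past it in the same spans that are nearest to bcd (90.5) or Glut3 (117).

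The strongest peaks of the Bithorax genes stood below those of Antp and Dfd in the series list. The abd-A peak, 18732 bp upstream of the abd-A TSS and within the annotated genes MSAmiP and lncRNA:iab8, had a signal of 77.3, with 34.5 in replicate 1 and 40.2 in replicate 2. Abd-B, which specifies the posterior abdomen, had its strongest peak in an intron at chr3R:16958701-16959050, with a signal of 69.7, 47.1 in replicate 1 and 18.1 in replicate 2. The replicates disagreed there, at percentile 99.2 of ranked peaks in replicate 1 and 68.6 in replicate 2, and its score was 397. Ubx, which specifies the posterior thorax and haltere, peaked in an intron at chr3R:16731432-16731781, 2819 bp downstream of its TSS. That signal was 63.4 over the series, and 29.8 and 33.5 in replicates 1 and 2, at percentiles 93.7 and 97.5 of the replicates' ranked peaks.

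In the rest of the Antennapedia complex, lab, which acts in the intercalary segment of the head and in the midgut, had its strongest peak in an intron at chr3R:6664359-6664708. Its signal was 68.5 over the series, and 28.4 and 40.4 in replicates 1 and 2. For pb, needed for the adult mouthparts, the strongest peak lay in the 5′ UTR at chr3R:6741120-6741469, with 59.4 over the series, and 26.1 and 29.1 in replicates 1 and 2. Scr, which acts in the labial and prothoracic segments, had the weakest leading peak of the 8 genes. That peak, in an intron at chr3R:6828308-6828657, had 46.7 over the series, and 24.5 and 24.3 in replicates 1 and 2.

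Which complex held the strongest Hox peak differed between the replicates. In the own list of replicate 1 the highest signal was 47.1 in the Bithorax complex, at Abd-B, and 44.4 in the Antennapedia complex, at Dfd. In the own list of replicate 2 it was 40.2 in the Bithorax complex, at abd-A, and 47.3 in the Antennapedia complex, at Antp. The higher maximum of the Antennapedia complex in the series list, 98.1 against 77.3, therefore did not hold in both replicates.

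**Figure D2:**
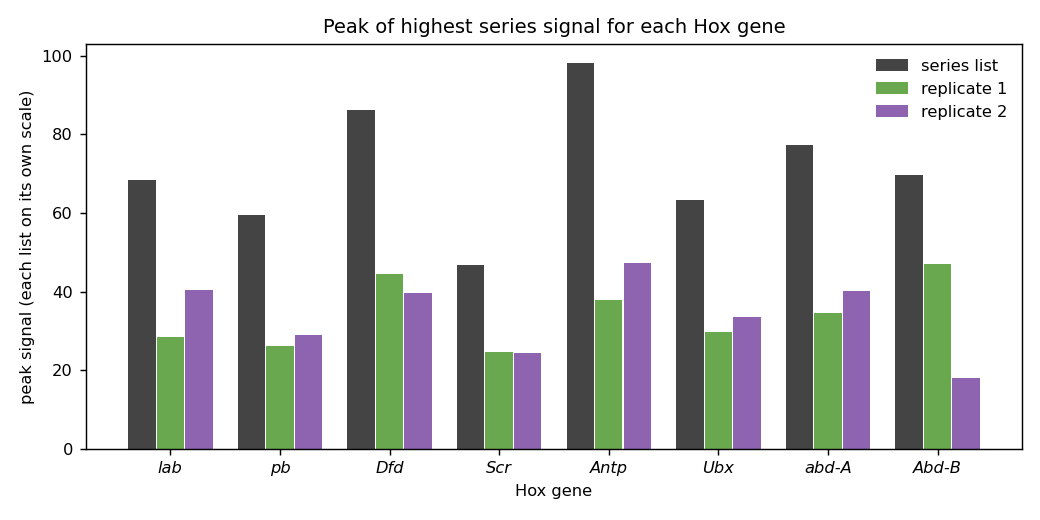
Signal, on the y axis, of the peak of highest series signal at each of the 8 Hox genes, with bars for the series list, replicate 1 and replicate 2, each on the scale of its own list. The Antp and Dfd bars lead in the series list (98.1 and 86.1), while at Abd-B replicate 1 stood at 47.1 and replicate 2 at 18.1.

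Away from these peaks, Hox ranked peaks sat near the middle of the list. Signals were turned into percentiles among all ranked peaks, so that 50 is the middle of a list. The median percentile was 52.1 over the 490 Hox peaks, 52.1 over all peaks on 3R, 50.5 for the Antennapedia and 53.4 for the Bithorax complex. The Bithorax median was also the higher one in the own lists of replicate 1, 54.8 against 53.0, and of replicate 2, 55.7 against 49.96. The difference was small beside the spread of single peaks, whose quartiles lay at percentiles 27.7 and 78.5, and it was not tested.

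Dfd had the highest median among the genes, at percentile 70.4 over 34 peaks, followed by Abd-B at 63.7 over 51 peaks. The other 6 genes had medians from 44.8 at abd-A to 52.1 at Scr. Dfd also had 9 of its 34 peaks, 26.5%, among the strongest 10% of the ranked list, and Abd-B had 7 of 51, 13.7%. Over all Hox genes the number was 48, or 9.80%, and it was 10.5% in the Antennapedia and 8.97% in the Bithorax complex. In the replicates' own lists the Dfd median was lower, at 56.5 and 62.5, and in replicate 1 pb at 64.5 and Abd-B at 61.5 stood above it. The place of Dfd at the top of the order of medians thus did not hold in replicate 1. Its share among the strongest 10% was 16.7% in the own list of replicate 1 and 15.6% in that of replicate 2. For Abd-B the shares were 16.3% and 20.8%, so Dfd did not lead in replicate 2.

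**Figure D3:**
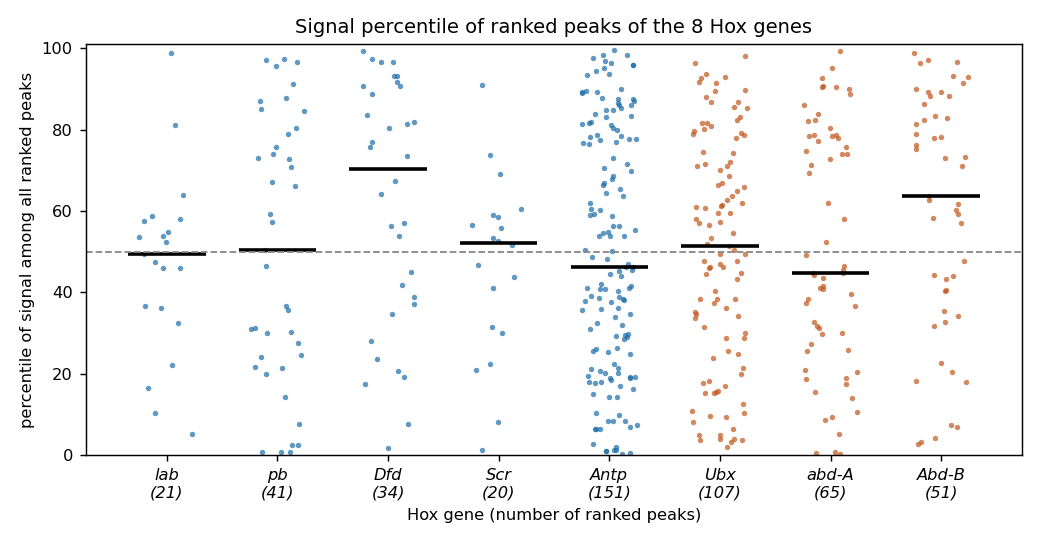
Percentile of signal among all ranked peaks of the series list, on the y axis, for every ranked peak (points) of the 8 Hox genes, with the number of peaks in parentheses and a bar at the median. Points of each gene spread over most of the range; the medians run from 44.8 at abd-A to 70.4 at Dfd, and the dashed line is the middle of the list.

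The number of ranked peaks per gene ran from 20 to 151 and did not follow gene length throughout. Antp and Ubx, with the longest bodies of 102976 and 77804 bp, had 151 and 107 ranked peaks. Among the other 6 genes, Dfd, with the shortest body of 10593 bp, had 34 peaks, while lab, with 17164 bp, had 21 and Scr, with 26862 bp, had 20. abd-A, with 22836 bp, had 65 peaks, more than pb, with 34264 bp and 41, and Abd-B, with 45025 bp and 51. Peaks outside the body counted too, 35 of the 65 at abd-A and 21 of the 34 at Dfd. Over the whole span from lab to Antp, 337.802 kb, there were 362 ranked peaks or 107 per 100 kb, and over the span from Ubx to Abd-B, 315.614 kb, there were 338, also 107 per 100 kb. These densities were close to those of 3R, at 114, and of all 6 chromosomes, at 105 per 100 kb. For peaks past the threshold the Antennapedia span had 3, or 0.888 per 100 kb, and the Bithorax span 1, or 0.317, beside 0.829 on 3R and 0.852 over all.

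The spans held 2 peaks past the threshold that were nearest to other genes and so were no Hox peaks. In the Antennapedia complex this was a peak 116 bp upstream of bcd, the homeobox gene for the maternal anterior determinant, with a signal of 90.5, 58.9 in replicate 1 and 39.9 in replicate 2. In the Bithorax complex it was an intergenic peak at chr3R:16798737-16799086, 10601 bp downstream of the TSS of Glut3, which encodes a sugar transporter. Its signal was 117 over the series, and 68.8 and 52.4 in replicates 1 and 2. This peak lay 29.193 kb from the nearest abd-A TSS and 64.486 kb from that of Ubx, had a higher signal than every Hox peak in all 3 lists, and was past the threshold in the own lists of both replicates. Which gene it acts on, if any, was not measured. Its summit window held a match to CAGGTAG, the Zelda motif, 30 bp from the summit, and is shown for that reason.
Glut3, chr3R:16798812-16799012: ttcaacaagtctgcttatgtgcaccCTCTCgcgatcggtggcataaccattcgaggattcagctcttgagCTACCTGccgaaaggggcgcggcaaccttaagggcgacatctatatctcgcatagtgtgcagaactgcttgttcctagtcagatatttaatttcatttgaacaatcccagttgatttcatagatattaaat

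Hox peaks lay in introns more often than ranked peaks at large. Of the 490, 388 or 79.2% were intronic, beside 39.8% of all ranked peaks. Intergenic summits made up 12.4% beside 32.1%, and coding exons 3.27% beside 23.1%. Dfd was the exception, with 21 of its 34 peaks, 61.8%, intergenic. Not all of the introns were those of Hox genes. At abd-A, 61 of 65 peaks were intronic and 0 intergenic, although 35 lay outside the abd-A body. Those 35 lay within other protein-coding genes, such as MSAmiP, which overlaps the abd-A upstream region. Only protein-coding genes counted for these classes, so summits within non-coding genes alone, as at some Dfd peaks, were called intergenic. Gene bodies also entered the rule that chose the peaks, so these shares describe the chosen peaks and no test was made.

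Few Hox peaks lay at promoters. Of the 490, 15 or 3.06% peaked within 500 bp of a TSS, beside 9.84% of all ranked peaks, and 9 of the 15 were at Abd-B. The rule took in whole gene bodies, so this share too describes the chosen peaks and was not tested. Counted by TSS, 9 of 19 Hox TSSs, 47.4%, had a ranked peak within 500 bp, beside 11364 of 19252, 59.0%, for all genes. No TSS of Dfd, Scr, Ubx or abd-A had one, while Abd-B had one at 5 of its 6 TSSs. The strongest of these lay in the 5′ UTR of Abd-B, 134 bp downstream of a TSS, with a signal of 58.7, 25.4 in replicate 1 and 30.4 in replicate 2. Its score of 579 left it outside the threshold.

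The 2 replicates gave weakly related signals over Hox peaks. Of the 490 peaks, 328 or 66.9% overlapped a ranked peak in both replicates by at least 1 bp, beside 68.2% of all ranked peaks and 97.5% of peaks past the threshold. Over these 328, Spearman's rho between the replicates was 0.187, beside 0.249 over all ranked peaks and 0.644 over peaks past the threshold. Peaks past the threshold were chosen for ranks that repeat between the peak sets compared. Their higher overlap and rho are thus partly built in, and the values over all ranked peaks are the background for Hox peaks. In the Antennapedia complex rho was 0.330 over 169 peaks, and in the Bithorax complex 0.0336 over 159. These points share 2 libraries, and overlapping series peaks can share 1 replicate peak, so they are not independent: the 490 Hox peaks merged to 360 regions.

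**Figure D4:**
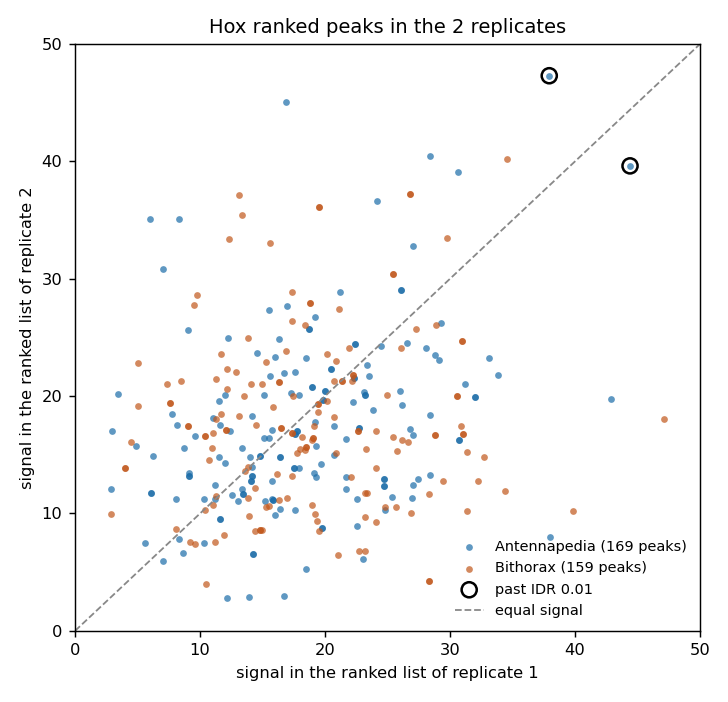
Signal in the ranked list of replicate 1 (x axis) and of replicate 2 (y axis) for the 328 Hox peaks with a ranked peak in both, coloured by complex, each on its own list's scale, with a dashed line at equal values. The circled Antp peak (37.9, 47.3) and Dfd peak (44.4, 39.6) are high in both replicates, while over all 328 peaks the ranks are weakly related (rho 0.187).

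Among the 20 Hox peaks of highest series signal, 14 were in the Antennapedia and 6 in the Bithorax complex. Over all 490 Hox peaks the numbers were 267 and 223. Of the 20, 18 had a ranked peak in both replicates, 13 were intronic and 1 lay within 500 bp of a TSS. Over all Hox peaks these shares were 66.9%, 79.2% and 3.06%, and no difference was tested. A T-box site lay within 100 bp of the summit in 1 of the 20, beside 2.45% of all Hox windows and 1.49% of all ranked peaks, a count too small to set it apart from either. This was an intronic Dfd peak at chr3R:6795831-6796180. It had a signal of 59.1 over the series, and 29.3 and 26.3 in replicates 1 and 2, and its score of 448 was outside the threshold. The site GGTGTGA lay 59 bp to the left of the summit, and the window is printed to show it beside the GAGAG matches around it.
Dfd with T-box site, chr3R:6795906-6796106: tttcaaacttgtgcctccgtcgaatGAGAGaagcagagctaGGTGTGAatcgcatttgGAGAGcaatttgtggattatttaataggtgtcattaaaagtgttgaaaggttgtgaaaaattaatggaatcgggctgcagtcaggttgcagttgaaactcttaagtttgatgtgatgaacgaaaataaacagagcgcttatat

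Motif content was taken within 100 bp of each summit and set beside adjoining windows of 201 bp laid over each span. The T-box letters GGTGTGA were in 12 of 490 Hox windows, 2.45%, beside 1.49% of all ranked peaks. They were in 1.58% of all series peaks past the threshold and in 1.44% of windows laid over 3R, so stronger peaks did not hold them much more often. By complex they were in 3 Antennapedia windows, 1.12%, and in 9 Bithorax windows, 4.04%. Windows laid over the spans held them in 1.49% for the Antennapedia and 1.27% for the Bithorax complex, so the Bithorax peaks were above and the Antennapedia peaks below the share of their span. All 9 Bithorax peaks had scores outside the threshold, and their signals lay at percentiles from 3.93 to 81.7 of the ranked list. No count of this size was tested. TTTATG was in 32.7% of Bithorax and 16.5% of Antennapedia windows, beside 18.0% of all ranked peaks. Windows laid over the Bithorax and Antennapedia spans held it in 32.5% and 21.7%, and over 3R in 20.8%. The share in Bithorax peaks was close to that of the span they lie in.

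GCCAT, the core of sites for the Polycomb group DNA-binding protein Pho, was in 54.7% of Bithorax and 40.4% of Antennapedia windows, beside 41.6% of all ranked peaks and 28.6% of peaks past the threshold. Windows laid over the same spans held it in 45.3% and 36.3%. GAGAG, bound by the GAGA factor, was in 31.2% of Hox windows, beside 23.3% of all ranked peaks. It was in 32.6% of Antennapedia and 29.6% of Bithorax windows, beside 25.1% and 22.3% of windows laid over the spans. The homeodomain letters TAATTA, at 9.80%, and TGATNNAT, at 12.04%, were near their shares of 9.35% and 10.6% over all ranked peaks. CAGGTAG was in 0.612% of Hox windows beside 1.26%, and TATCGATA in 0.204% beside 0.335%, counts of 3 peaks and 1 peak. ACAGTG, in 22.6% of peaks past the threshold, was in 10.4% of Hox windows and 8.19% of all ranked peaks.

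**Figure D5:**
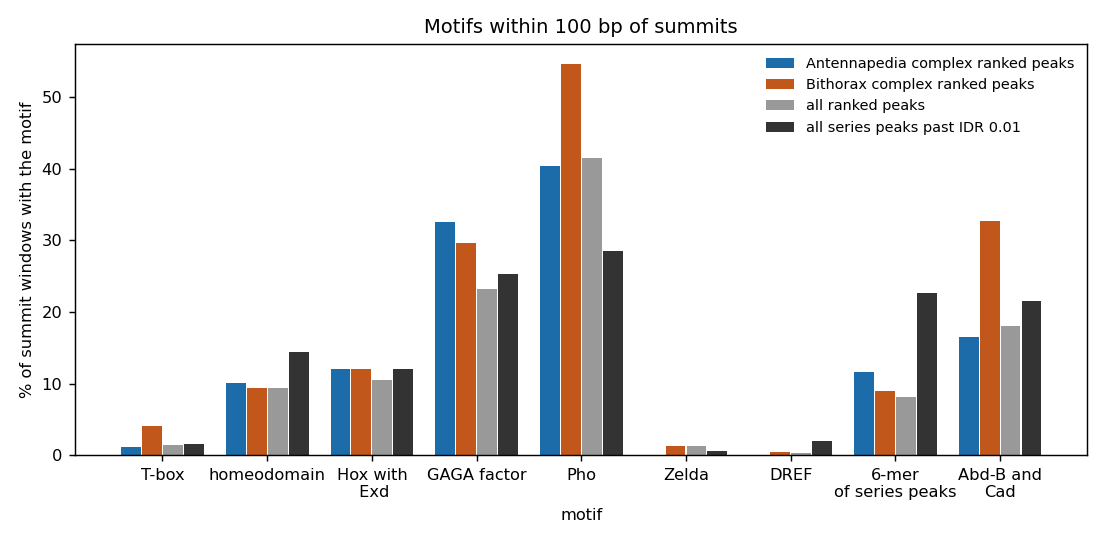
Percentage of 201-bp summit windows, on the y axis, that hold each of the 9 motifs, on the x axis, for ranked peaks of the Antennapedia complex and of the Bithorax complex, all ranked peaks and all series peaks past the threshold. Bithorax bars exceed Antennapedia bars for the T-box letters (4.04% and 1.12%), Pho (54.7% and 40.4%) and TTTATG (32.7% and 16.5%).

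Of 27 other genes of the Hox pathway, 8 had a series peak past the threshold, beside 7.82% of all 13945 protein-coding genes. By role these were 1 of 6 cofactors and partners, 1 of 4 further homeobox genes of the Antennapedia complex, 1 of 8 upstream regulators and 5 of 9 targets. The conservative list had a peak at 7 of the 27, replicate 1 at 2 in its own list and replicate 2 at 0. These lists hold fewer peaks than the series list, and the share over all genes was taken for the series list only. The lower counts therefore have no background to be judged against. Ranked peaks per gene ran from 0 at exd to 139 at hth, and a gene with more of them has more chances in a count of genes. Per peak, 2 of 139 at hth, 1 of 84 at dpp and 2 of 81 at vvl were past the threshold. For disco-r it was 0 of 77 and for bcd 1 of 6, beside 0.813% of all ranked peaks. These genes are examples from the 27. The count of 8 of 27 genes lay above the 7.82% of all genes. The parts of gene length and peak number in it were not tested, so it is a description only.

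Of the Hox cofactors, hth, which brings Exd into the nucleus, had a peak in an intron with a signal of 102, 53.3 in replicate 1 and 44.0 in replicate 2. exd itself had 0 ranked peaks, and tsh, tio, disco and disco-r had none past the threshold. Among upstream regulators, ftz-f1, the nuclear receptor partner of Ftz, had an intronic peak of 60.9, with 41.8 in replicate 1 and no ranked peak in replicate 2. The gap and pair-rule genes of the list, hb, Kr, kni, gt, eve and opa, and the posterior regulator cad had none.

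The highest 2 signals of the list were at targets. vvl, a POU-domain gene of the tracheal system, had an intergenic peak of 127, with 70.3 in replicate 1 and 57.0 in replicate 2. Dll, the limb gene repressed by Bithorax proteins in the abdomen, had a peak 75 bp upstream of a TSS with 114.6, 75.1 in replicate 1 and 38.0 in replicate 2. Both were above every Hox peak in the series list and in replicate 1. In replicate 2, Dll was below the Antp and Dfd peaks past the threshold. It was also below the highest peaks there of pb (45.1), lab (40.4) and abd-A (40.2). ems, a head gap gene, had 89.6, with 53.7 in replicate 1 and 34.4 in replicate 2. ct, a homeobox gene of sense organs and the posterior spiracle, had 87.1, with 36.6 and 46.7, and dpp, a signalling ligand of dorsal ectoderm and midgut, had 82.9, with 44.3 and 45.3. The targets salm, wg, rpr and ap had no peak past the threshold.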

How the data were processed

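Peaks were on dm6, called against a control and compared by IDR, per the deposited notes on the files. No source used here names the aligner, the peak caller or their settings. The signal per peak was deposited by the authors and was used to rank and describe peaks within a list. The authors also deposited a score scaled from the IDR, and the ranked lists hold the deposited −log10 of the IDR, from which the IDR was computed. The series list lay within the ranked list used here as the series ranked list. Without read counts the depth is unknown, and signals carry no counting interval. Another 2 columns of per-sample values were not used.

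Peaks on the 6 main chromosomes and arms were given to protein-coding genes of Ensembl release 115 by summit; chromosome lengths of the Release 6 genome, used for sequences, were checked against the peaks. A replicate's value is the overlapping peak of highest signal in its own ranked list. Positions are 1-based. A summit in several classes was counted as UTR or coding exon before intron. Genes named are the 8 Hox genes, the leading peak of each, every Hox peak past a threshold, the pathway genes with a series peak, and neighbours that took a peak from a span; pathway genes without a peak and the further Hox peaks described were added after their values were seen. Members, motifs and lists were chosen with earlier results of these data known. Alternatives were other lists, each replicate alone, other assignment rules, overlaps, windows and IDR limits. The steps were tested on simulated data. Python 3.11.15 was used with matplotlib 3.10.9, scipy 1.17.1, pandas 2.3.3 and numpy 2.4.6.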

Additional observations from a re-analysis of the deposited data

How the results depend on the processing

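Of 186 alternative values, 119 kept their direction and size, 66 moved and 1 reversed. Size was taken as kept within a fixed factor for counts, densities and ratios, and within the spread of the 2 replicates for signals and percentiles. Some of the 119 set 0 beside 0, as for Bithorax Hox peaks in the replicates' own lists, and say nothing on stability. The causes of the changes were not tested, except that wider spans, other limits and shorter lists change the peaks counted by construction. The 2 Hox peaks past the threshold, both in the Antennapedia complex, became 0 to 0 with either replicate's own list alone (without replicate 1, without replicate 2), 0 among the stronger 50% of the list, 1 by gene body only, and 4 over whole spans, of which 1 in the Bithorax complex. At an IDR of at most 0.05, chosen after seeing the data, they became 9 in the series comparison (6 Antennapedia, 3 Bithorax) and 7 in the one behind the conservative list (4 and 3). The number of span peaks found in the own list of replicate 1 was 1, and of replicate 2 also 1, both in the Bithorax complex, against 0 for Hox peaks.

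Peaks past the threshold per 100 kb, 0.612 over both spans, became 0.153 with either replicate alone or the stronger 50% of the list, 0.306 by nearest TSS or gene body, nearest TSS, or gene starts or body, and 0.153 by gene body. In the Antennapedia complex they became 0 with either replicate alone or the stronger 50% and 0.296 by gene body, and in the Bithorax complex 0 under the 4 gene-based rules. Ranked peaks per 100 kb became 62.3 by nearest TSS and 60.3 by gene body over both complexes, 65.1 by gene body in the Antennapedia complex, and 70.7 by nearest TSS or gene body (70.7 by gene starts or body), 51.0 by nearest TSS and 55.1 by gene body in the Bithorax complex. The strongest signal ran from 47.1 to 47.3 without one replicate over both complexes, from 44.4 to 47.3 in the Antennapedia and from 40.2 to 47.1 in the Bithorax complex, on the replicates' own scales; it was 117 over whole spans for both and for the Bithorax complex, and 69.7 by gene body in the latter.

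The median percentile over both complexes was 51.4 in the other ranked list, 52.6 to 53.4 without one replicate and 54.6 over whole spans. In the Antennapedia complex it was 49.96 to 53.0 without one replicate and 53.9 over the span, and in the Bithorax complex 52.3 in the other list, 54.8 to 55.7 without one replicate, 58.1 by nearest TSS, 56.7 by gene body and 56.1 over the span. The share of Hox windows with TATCGATA relative to all ranked peaks, 0.609, reversed to 1.39 within 50 bp and was 0.234 within 250 bp, on 1 Hox peak. Pathway genes with a series peak, 8, became 0 to 2 without one replicate and 2 in the stronger 50% of the list. No paired analysis was possible because there is 1 group and no result comes from a test.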
